A study of Mus musculus with 18 samples.

Results

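The comparison described here is that of wild-type Purkinje cells at 8 weeks of age with those at 4 weeks. It covers 6 of the 18 array libraries of a study that also followed mice with a CGG90 Fmr1 transgene, and its members were taken by the labelled genotype and age, 3 libraries at 4 weeks and 3 at 8 weeks. Each library was made from RNA bound to tagged ribosomes of the cerebella of 4 mice, 2 males and 2 females, so the animals of a library were pooled. The method, translating ribosome affinity purification, uses the ribosomal protein L10a fused to EGFP, here from an L7/Pcp2 BAC transgene carried hemizygously by every animal, controls included; Pcp2 is the gene whose regulatory region limits the tag mainly to Purkinje cells. All mice were first-generation crosses with 50% C57B6 and 50% FVB background, from a 100% C57B6 heterozygous L7CGG90Fmr1 parent and a 100% FVB parent homozygous for the tag, so wild type here means that the repeat transgene was absent. The CGG90 mice carried both transgenes, and the remaining libraries were 3 of CGG90 at each of 4, 8 and 12 weeks and 3 of wild type at 12 weeks.

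Purkinje cells are the only output neurons of the cerebellar cortex. They receive excitatory input from granule cells, through parallel fibres, and from the inferior olive, through climbing fibres, and they inhibit the deep nuclei with GABA. In the mouse their dendrites and synapses are largely laid down before weaning, and firing properties, wiring of the cerebellum and myelination of axons go on maturing into young adulthood. RNA on ribosomes reports which messages are engaged by the translation machinery, and a difference in it can come from the level of the message or from its loading.

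The values are deposited log2 array signals, on which a difference of 1 is a doubling. The median over all probe sets was 2.57 to 2.58 in the 4-week libraries and 2.63 to 2.68 in the 8-week libraries, so values near that level stand for signal close to background. Purkinje markers were high in all 6 libraries. Pcp2 read 14.75, 14.81 and 14.55 at 4 weeks and 14.93, 14.78 and 14.91 at 8 weeks. The mean of the 22 Purkinje markers tested lay between 12.41 and 12.65 at either age. Rpl10a, the endogenous form of the tagged protein, differed by -0.13, and Fmr1, which is not altered in wild type, had means of 6.98 ± 0.57 and 7.35 ± 1.54 (SD, n = 3 each). In CGG90 libraries Fmr1 read 11.01 to 11.90 at 4 and 8 weeks, but 2 of the 3 libraries labelled CGG90 at 12 weeks read 7.10 and 6.03, against 12.01 in the third, and so went against their label. They enter the tests here only through the shared estimate of spread; without them no gene passed in wild type (Fasn had an adjusted p of 0.150 in limma). Markers of other cells were also present and varied among libraries of 1 age: the mean of 77 such genes (granule cells, glia, vessels, blood, choroid plexus and other neurons) was 6.08, 7.51 and 8.31 at 4 weeks and 6.85, 7.70 and 5.48 at 8 weeks. All 9 marker lists of other cells had a median difference below 0. Those of granule cells, astrocytes, microglia, other neurons and choroid plexus turned above 0 without the third replicate of 4 weeks or of 8 weeks. The microglia median, for example, was then 0.38 and 0.49. Libraries of the same age correlated with each other at r = 0.894 to 0.957 (6 pairs) and libraries of different age at 0.896 to 0.963 (9 pairs). None of the immunoprecipitation dates was shared between the ages, and a number of unstated meaning in the sample titles also changed with age, so age cannot be told apart from either. The labels do not say whether the replicates of a group were separate pools of animals, so p-values measure the spread between these libraries.

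**Figure D1:**
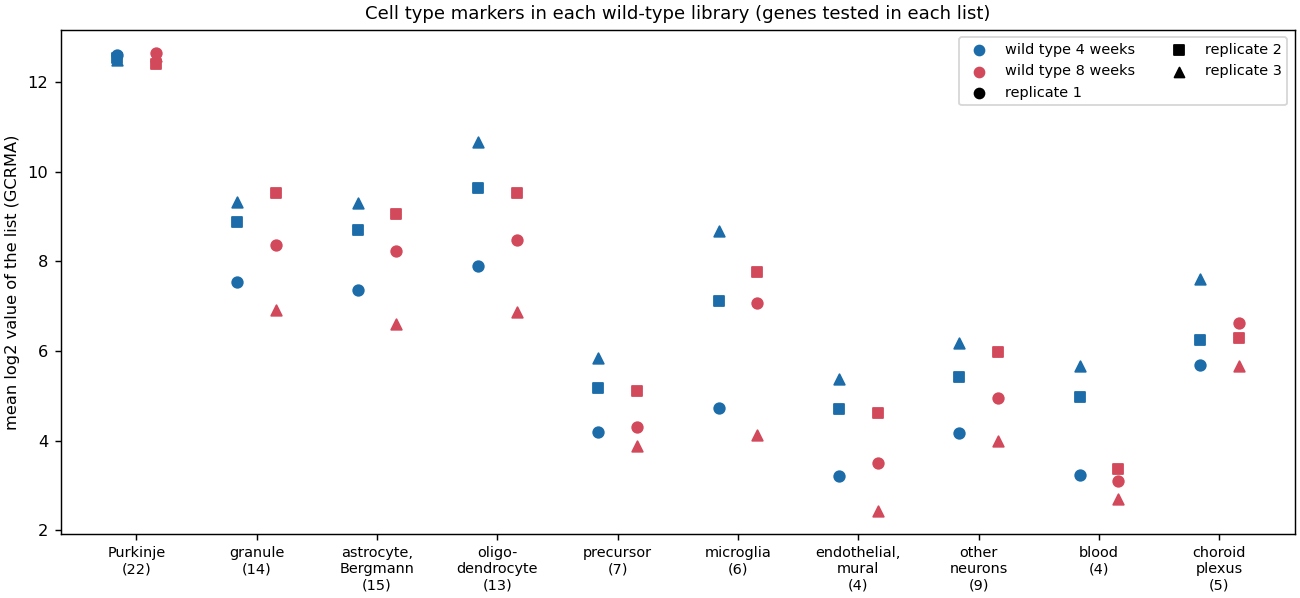
Mean log2 level of the markers of each cell type (vertical axis) in the 3 wild-type libraries at 4 weeks and the 3 at 8 weeks, 1 point per library. Purkinje markers sit between 12.41 and 12.65 in all 6 libraries, while the means of every other cell type overlap between the ages and spread more widely, as for oligodendrocytes (7.91 to 10.67 at 4 weeks).

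No gene of 10068 tested changed between 4 and 8 weeks (0%) at an adjusted p of 0.05 (limma, two-sided, Benjamini-Hochberg adjustment). At an unadjusted p under 0.05 there were 441 genes (4.38%), of which 192 were higher at 8 weeks (1.91%) and 249 lower (2.47%). The median difference was -0.04, 10% of genes lay below -0.72 and 10% above 0.56, and the median standard error of a difference was 0.47. Mean values were lower at 8 weeks for 54% of genes. All 3 libraries of 1 age lay beyond all 3 of the other for 554 genes that were higher at 8 weeks (5.5%) and 653 that were lower (6.49%). Such separation is the most that 3 against 3 libraries can show, since an exact two-sided permutation test cannot go below p = 0.1. With no age effect, a share of 0.1 of genes would be expected to separate in 1 direction or the other. The 2 shares given here are to be read together against that. In simulated data of this design, 54% of genes given a log2 change of 2 were recovered and 12% of those given a change of 1. Changes of 1, 2, 3 and 4 were each given to 50 genes, and the noise was drawn independently for each gene and library. Variation that the genes of a library share was thus not simulated, so these shares may not hold for the measured libraries.

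The gene nearest to the threshold was Fasn (gene 14104), which encodes fatty acid synthase, the enzyme that builds long-chain fatty acids from malonyl-CoA. Its log2 signal was 6.79, 7.75 and 7.27 at 4 weeks and 5.60, 4.77 and 4.40 at 8 weeks. Every 8-week library lay below every 4-week library. The difference was -2.34 ± 0.34 (SE), a 5.08-fold lower mean signal, with an adjusted p of 0.054 in limma. It passed with quantile normalization (adjusted p 0.031), median centring (0.030), array weights (0.011), stricter filters (0.040 and 0.047) and without the first replicate of 4 weeks (0.037) or of 8 weeks (0.0079), while a fit of the 6 wild-type libraries alone gave 0.891. Array weights gave 46 genes past the threshold, 20 higher and 26 lower, where every other setting gave 0 to 2. At 12 weeks it read 6.41, 6.79 and 6.27, and their mean of 6.49 lay between the means of the younger ages, 7.27 and 4.92. In the CGG90 libraries the difference between the same ages was -0.21 ± 0.34, and the difference between the genotypes in this respect, -2.14 ± 0.48, had an adjusted p of 1.00.

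The gene with the smallest p among those higher at 8 weeks was Kazald1 (gene 107250), which encodes a secreted protein with a Kazal-type protease inhibitor domain. It read 9.23, 8.81 and 8.11 at 4 weeks and 10.85, 10.23 and 10.77 at 8 weeks, with no overlap. The difference was 1.90 ± 0.34 (SE), 3.73-fold, with an adjusted p of 0.239 in limma. The CGG90 difference was 1.81 and the 12-week wild-type libraries read 10.23 to 10.79, so all libraries of 8 weeks or more in wild type lay above those of 4 weeks.

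Per direction, the 12 genes with the lowest p-values separated the ages without overlap in wild type, which their choice by p largely fixes. Get1, part of the machinery that inserts tail-anchored proteins into the endoplasmic reticulum membrane, read 9.39, 9.95 and 9.67 at 4 weeks and 10.75, 10.72 and 10.61 at 8 weeks, a difference of 1.03 ± 0.24 (adjusted p 0.841, limma). Trappc6b, a subunit of a vesicle-tethering complex, had a difference of 0.93, and a second probe set gave 0.86. Smpd4, a sphingomyelinase, differed by 1.62 and Aida, an inhibitor of JNK signalling through axin, by 1.30. The other Smpd4 probe sets were near background at 4 weeks and gave 0.003 to 0.77. Cnot6, a deadenylase of the CCR4-NOT complex, differed by 1.66, but its other probe sets gave 0.05 to 0.75. The second probe set of Aida gave -0.35, opposite in sign. The remaining 6 of the higher genes (Zfp287, Btnl9, Gm6600, Sntb1, BC147527 and Thsd7b) had 4-week means under 4, close to background. Over all genes, 336 had all 3 wild-type 4-week libraries under 4, and 74 of these were among the 554 that were higher without overlap.

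Among the lower genes, Dnajc17, a J-domain co-chaperone, read 7.64, 7.61 and 7.77 at 4 weeks and 6.11, 5.06 and 5.26 at 8 weeks. The 4-week libraries were close together and all above the 8-week ones, with a difference of -2.19 ± 0.40 (adjusted p 0.239, limma) and -1.93 and -0.54 on its other probe sets. Fkbp15, an FK506-binding-type protein of endosomes, differed by -1.90 and by -2.00 on its second probe set. Morc4, a GHKL-type ATPase, Med17, a Mediator subunit, and Parp2, a poly(ADP-ribose) polymerase of DNA repair, differed by -2.02, -1.83 and -1.63. Another Med17 probe set was at background at both ages. Ybx3, a cold-shock-domain RNA-binding protein, read 11.19, 11.15 and 11.15 at 4 weeks and 10.11, 10.28 and 10.47 at 8 weeks, a difference of -0.88, with -0.21 on its other probe set. Mpzl1, a cell-surface glycoprotein, had means of 9.22 at 4 weeks and 8.21 at 8 weeks, and its other probe set gave a difference of -0.38. Cdt1, a DNA replication licensing factor, was at 4.05, 4.57 and 6.23 at 4 weeks and at 2.30 to 2.33 at 8 weeks, the latter at background. The other Cdt1 probe sets were at background at both ages. S100a9, a calcium-binding protein of neutrophils, read 4.37, 6.57 and 8.07 at 4 weeks and 2.85 to 3.82 at 8 weeks. It is 1 of the 4 blood cell genes tested, of which S100a8, Alas2 and Slc4a1 differed by -1.92, -1.86 and 0.47, and the part of blood cells in its values was not tested. Ddx31, an RNA helicase, had a difference of -3.45 ± 0.87, and another of its probe sets was at background at both ages. Mybpc3, the cardiac form of myosin-binding protein C, differed by -1.99 with its 8-week mean under 4.

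**Figure D2:**
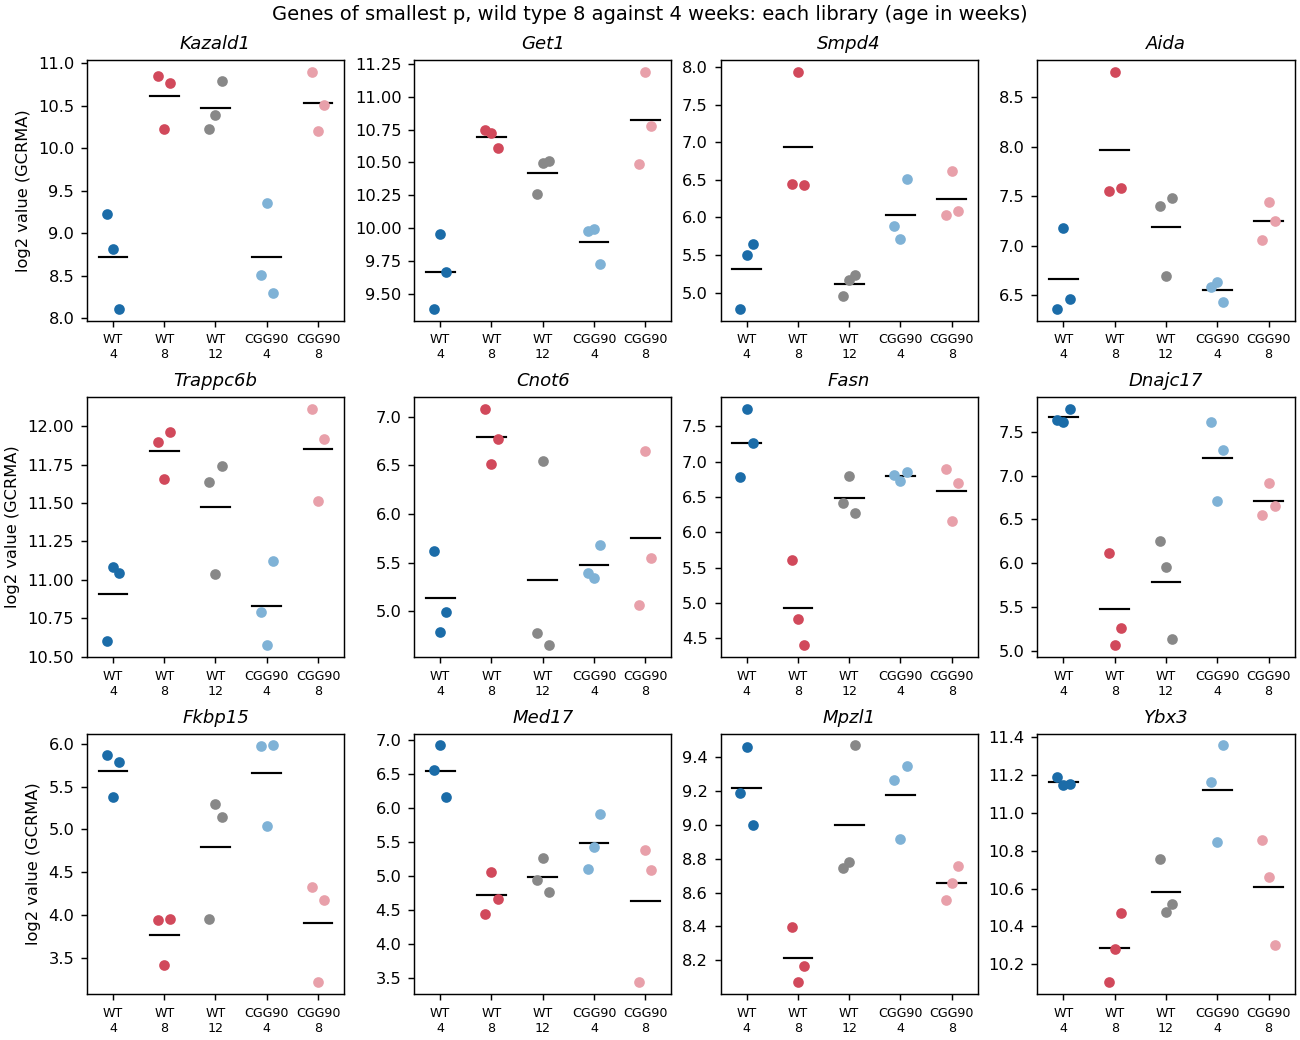
Log2 signal (vertical axis, scaled per gene) of 12 of the genes of smallest p in wild-type libraries at 4, 8 and 12 weeks and CGG90 libraries at 4 and 8 weeks, with points for libraries and lines for group means. Fasn lies between 6.79 and 7.75 at 4 weeks and between 4.40 and 5.60 at 8 weeks, and Kazald1 between 8.11 and 9.23 against 10.23 and 10.85.

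Gene lists were described by the number of members that were lower or higher, the number separated without overlap and the median difference, to be read against 54% lower, 6.49% lower without overlap, 5.5% higher without overlap and a median of -0.04 over all genes. No member of any list passed the test. Proteasome subunits were lower at 8 weeks for 35 of 42 members tested, 12 of them without overlap (28.6%), with a median difference of -0.31. The proteasome degrades ubiquitin-tagged proteins with a barrel-shaped core and regulatory caps. Among the caps, Psmc4, an ATPase subunit, read 12.06, 12.22 and 12.11 at 4 weeks and 11.46, 11.27 and 11.71 at 8 weeks, a difference of -0.65 ± 0.30 (SE). Psmd13, Psmd3 and Psmd12, non-ATPase subunits, differed by -0.69, -0.55 and -0.53. Of the core, Psma5 read 11.25, 11.05 and 11.27 against 10.88, 10.45 and 10.46, and Psma4 differed by -0.47. Another Psma5 probe set of like level gave -0.23. The mean over the list was 10.47 to 10.66 at 4 weeks and 10.09 to 10.44 at 8 weeks, so the ages did not overlap, but the nearest libraries were close. Leaving out each library in turn gave medians of -0.35 to -0.20, the latter without the second 8-week replicate. With the mean of other-cell markers as a covariate the median was -0.35.

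Glycolysis and lactate genes were lower for 18 of 21 members, 8 without overlap (38.1%), with a median of -0.26. Ldha and Ldhb, the subunits of lactate dehydrogenase, differed by -0.76 ± 0.32 and -0.21 ± 0.18 (SE). Ldha had a mean of 10.26 ± 0.32 (SD, n = 3) at 4 weeks and read 9.95, 9.60 and 8.95 at 8 weeks, so that its closest libraries almost met. Pgk1, phosphoglycerate kinase, read 12.72, 12.76 and 12.83 against 12.33, 12.09 and 12.30, and its other probe sets gave -0.63 and -0.67. Tpi1, triosephosphate isomerase, Pfkp, a phosphofructokinase, and Eno2, the neuronal enolase, differed by -0.32, -0.30 and -0.28. The list's mean was 10.77 to 10.99 at 4 weeks and 10.59 to 10.73 at 8 weeks. Its median was -0.28 to -0.19 when each library was left out and -0.26 with the other-cell covariate. Oxidative phosphorylation genes, for comparison, were lower for 42 of 68 members, with a median of -0.02. Without overlap, 5 were higher and 1 was lower. The member lower without overlap was Uqcrc2, a core subunit of complex III, at 13.04, 12.97 and 12.72 against 12.01, 12.50 and 12.23. With the other-cell covariate the median of the oxidative phosphorylation list was -0.09 and 49 members were lower.

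Cholesterol biosynthesis genes were lower for 16 of 20 members, but only 1 of these was without overlap (5%), with a median of -0.62. That member was Mvd, the decarboxylase that makes isopentenyl diphosphate, with 7.22, 7.65 and 7.64 at 4 weeks and 6.27, 5.14 and 7.06 at 8 weeks, a difference of -1.35 ± 0.51 (SE), and -0.94 on a second probe set. The mean of the list was 7.39, 8.39 and 8.45 at 4 weeks and 7.44, 7.65 and 7.51 at 8 weeks, so 1 of the 4-week libraries lay below all 8-week libraries. The median was -1.04 and -0.33 without the first and the third 4-week replicates and was -0.43 with the other-cell covariate. Myelinating cells make much cholesterol, and the mature oligodendrocyte markers were lower at 8 weeks for all 13 members, with a median of -1.27 and every member overlapping between the ages. That median was -1.93 and -0.75 without the first and the third 4-week replicates and -0.50 without the third 8-week replicate. Their mean was 7.91, 9.64 and 10.67 at 4 weeks and 8.47, 9.52 and 6.86 at 8 weeks, and their part in the values of the lipid genes was not tested. In such libraries fewer cells of a type, less RNA per cell and less RNA of untagged cells in the purification cannot be told apart.

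Lipid synthesis genes are known targets of SREBP factors, which act with NF-Y, a factor that binds CCAAT. The 250 bases before the start of Fasn and Mvd, from RefSeq (GRCm38.p6), are shown because Fasn led the lower genes and Mvd was the cholesterol gene that separated the ages; CCAAT on either strand is in capitals, and the sequences are written in the direction of the gene. The Fasn window is chr11:120824548-120824797 (minus strand) and the Mvd window is chr8:122443423-122443672 (minus strand).
Fasn: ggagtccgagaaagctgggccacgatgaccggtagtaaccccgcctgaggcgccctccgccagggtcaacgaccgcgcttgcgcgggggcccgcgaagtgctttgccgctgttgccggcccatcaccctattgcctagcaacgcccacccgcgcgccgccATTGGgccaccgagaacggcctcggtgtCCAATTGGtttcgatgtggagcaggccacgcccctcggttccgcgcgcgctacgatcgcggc
Mvd: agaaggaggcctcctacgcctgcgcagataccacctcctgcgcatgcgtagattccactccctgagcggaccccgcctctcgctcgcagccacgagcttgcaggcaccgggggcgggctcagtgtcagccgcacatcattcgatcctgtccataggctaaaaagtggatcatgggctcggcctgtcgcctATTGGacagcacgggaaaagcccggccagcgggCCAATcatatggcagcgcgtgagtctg
The Fasn window held 3 matches, 2 of which overlap each other, and the Mvd window 2. CCAAT was in 16 of 17 windows of the cholesterol list (94.1%), in 37.1% of those of the proteasome list, in 25% of those of the glycolysis list and in 34.5% of 27025 windows of all genes. GGGCGG, a GC box, was in the same number of cholesterol windows (94.1%), in 57.1% of proteasome and 55% of glycolysis windows and in 32.9% of all. An exact match to the consensus sterol regulatory element that SREBP binds was in 0 of the 17 cholesterol windows and in 0.0629% of all. Sequences that depart from that consensus were not searched. With exact matches so rare among all genes, the 0 cannot decide whether the cholesterol windows hold SREBP sites. TGACNNNGC was in 5.88%, 14.3% and 5% of cholesterol, proteasome and glycolysis windows against 10.1% of all, and CACGTG, an E-box, in 17.6%, 11.4% and 15% against 6.05%. All were searched on both strands. The list windows were those of members tested (17 windows for 20 cholesterol genes), while the windows of all genes include genes not tested. The sets are therefore not alike, and the part of expression level in these shares was not tested. A match is a description of the letters, not of binding.

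**Figure D3:**
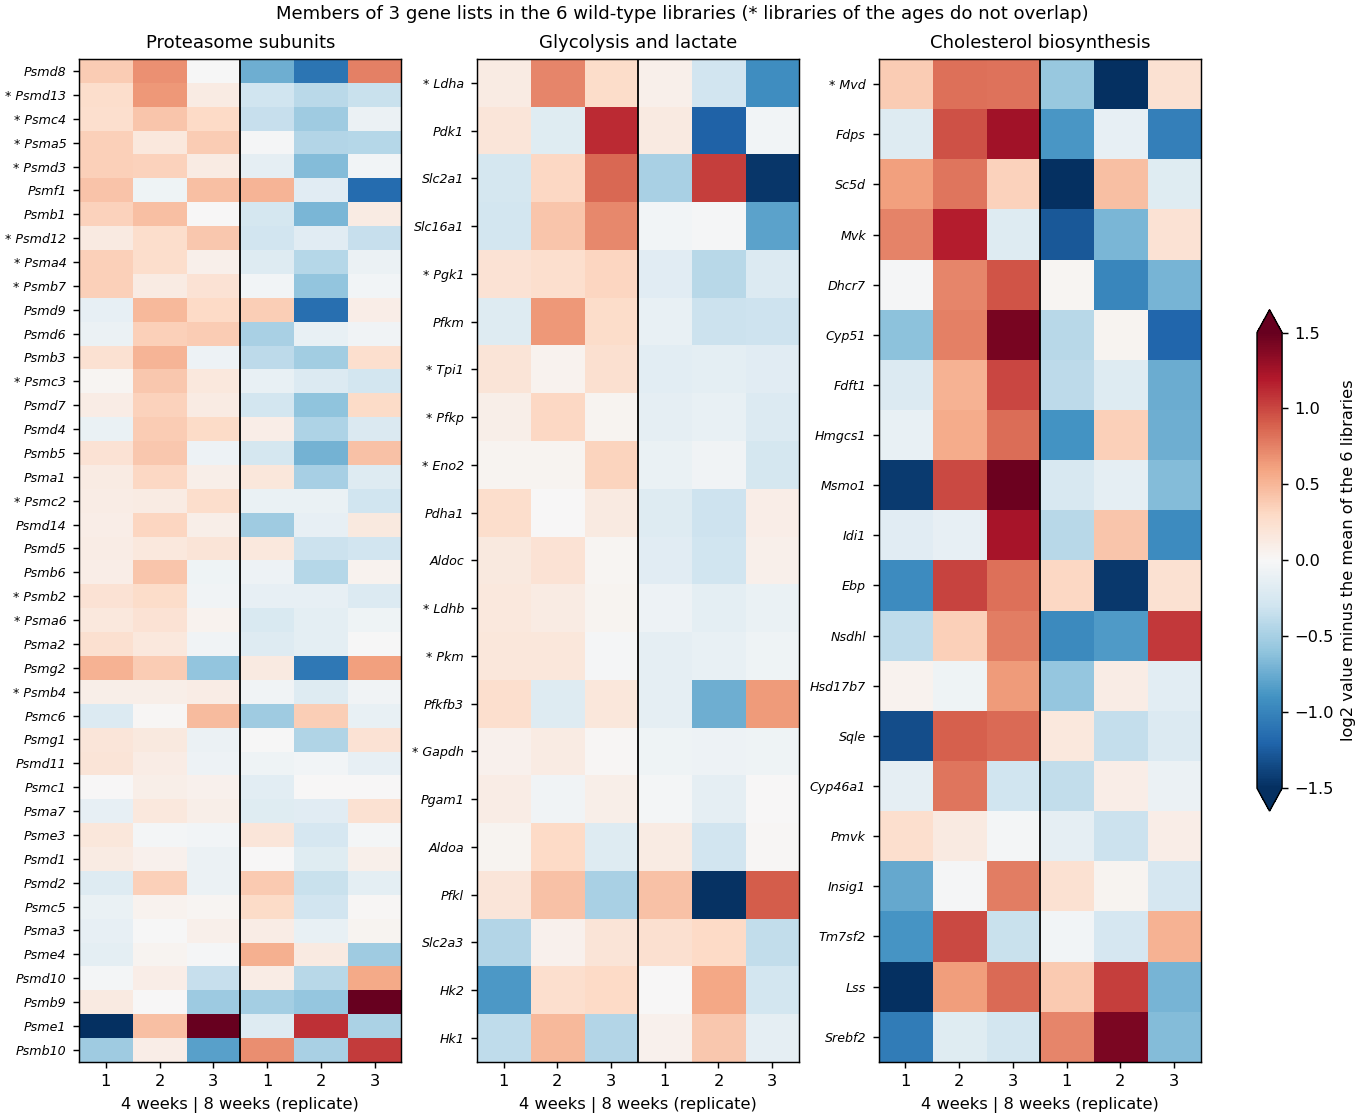
Log2 value of each member minus its mean over the 6 wild-type libraries (colour, red above and blue below), with members in rows and libraries in columns, for proteasome subunits, glycolysis and lactate genes and cholesterol biosynthesis genes; stars mark members whose libraries do not overlap between ages. Stars stand at 12 proteasome, 8 glycolysis and 1 cholesterol genes.

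Heat shock proteins were lower for 18 of 24 members, 4 without overlap (16.7%), with a median of -0.31. Hsp90aa1, the inducible cytosolic HSP90, read 12.32, 12.45 and 12.44 at 4 weeks and 11.51, 12.07 and 11.60 at 8 weeks, a difference of -0.67 ± 0.26 (SE). Its other probe sets of like level gave -0.20 and -0.69. The median of the list was -0.18 to -0.11 without the first or the third replicate of either age, and -0.19 with the other-cell covariate. Dnaja2, an HSP40 co-chaperone, differed by -0.49, while Hspa1b and Bag3 were near 4 at 4 weeks. Genes of FMRP, its partners and proteins that bind CGG repeats were lower for 16 of 22, 3 without overlap (13.6%). These were Khdrbs1 (Sam68), an RNA-binding splicing regulator, at -0.95, and the RNA-binding proteins Caprin1 and Hnrnpc, at -0.61 and -0.60. The list's median of -0.28 was -0.13 and -0.07 without the third replicate of 4 and of 8 weeks and -0.12 with the covariate. Chromatin regulators were lower for 17 of 29, 6 of them without overlap, including the maintenance DNA methyltransferase Dnmt1 at -0.97 and the histone deacetylase Hdac1 at -0.88. The median was -0.14, -0.06 without the third 4-week replicate, -0.03, -0.27 and -0.04 without the first, the second and the third 8-week replicates, and -0.20 with the covariate. The methyl-DNA-binding protein Mbd2 was the 1 member that was higher without overlap, at 0.65. Cytoplasmic ribosomal proteins were at a median of 0.00, with 22 of 42 higher and 4 lower without overlap.

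Genes that mark neuronal immaturity were lower for 18 of 23, 3 without overlap (13%), with a median of -0.39 that was -0.24 and -0.12 without the third replicate of 4 and of 8 weeks and was -0.10 with the other-cell covariate. Tubb2a and Tubb3, tubulins of growing neurites, read 13.97, 13.81 and 14.16 against 13.55, 13.59 and 13.39, and 13.39, 13.15 and 13.12 against 12.90, 12.61 and 12.93. Dpysl3, a collapsin response mediator, differed by -1.64, but its 8-week values were 4.85, 4.85 and 2.28. Its other probe sets, with 4-week means of 3.54 and 2.71, gave 0.40 and -0.06. In the synaptic vesicle list 20 of 34 were lower, 2 without overlap: Nsf, the ATPase that recycles SNARE complexes, at -0.93, and Syn1, synapsin I, at -0.61.

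Genes of Purkinje identity and excitability were spread around the median of all genes. Of 22 Purkinje markers, 12 were lower and 10 higher, with a median of -0.02 whose sign turned to 0.02 when the arrays were centred on their medians. Calb1, calbindin, and Stmn4, a stathmin, were lower without overlap, at -0.22 and -0.21. Gad2, a GABA-synthesising enzyme, Icmt, a carboxyl methyltransferase, and Rgs8, a regulator of G-protein signalling, were higher without overlap, at 0.58, 0.43 and 0.30, though a second Gad2 probe set gave -0.06. Transcription factors of Purkinje identity had 11 of 20 higher and none without overlap. In the list of mGluR1 signalling 11 of 18 were lower and 2 were higher without overlap; Homer1, a scaffold of the receptor, was at 0.86, with -1.08 to 0.21 on its other probe sets.

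Among receptors and channels, Cacng2 (stargazin), which brings AMPA receptors to the synapse, read 8.62, 8.26 and 7.53 at 4 weeks and 8.92, 9.49 and 9.11 at 8 weeks, a difference of 1.03 ± 0.33 (SE). Its libraries did not overlap, but a second probe set of like level gave 0.09. Adgrb3, the adhesion receptor on Purkinje cells for C1ql1 of climbing fibres, read 7.80, 8.58 and 8.38 against 9.05, 9.06 and 9.09, with the 8-week libraries close together and above the rest. C1ql1 itself differed by 1.28 from a 4-week range of 3.26 to 5.80. Other members of these lists were lower without overlap. Gphn, gephyrin, the scaffold of inhibitory synapses, read 8.27, 8.00 and 8.01 against 7.09, 6.27 and 7.84, a difference of -1.03, and its other probe sets gave -0.13 and -0.96. Ptprf, a receptor phosphatase that organises synapses, differed by -1.11. Ionotropic glutamate receptor genes were lower for 13 of 20 (median -0.21) and synapse organisers for 21 of 31 (median -0.10). Potassium channels were higher for 16 of 29, with a median of 0.16 that ranged from -0.07 to 0.37 when each library was left out. Kcnip4 and Dpp10, auxiliary subunits of A-type channels, were higher without overlap, at 0.53 and 0.67, and their other probe sets gave 0.44 to 0.62 and 0.77. Kcnh1, another potassium channel, was lower without overlap at -1.08, with a 4-week mean of 3.84 and 0.55 on its other probe set. Dab1, the adaptor of reelin signalling, differed by 0.63, with -0.37 to 0.44 on its other probe sets.

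**Figure D4:**
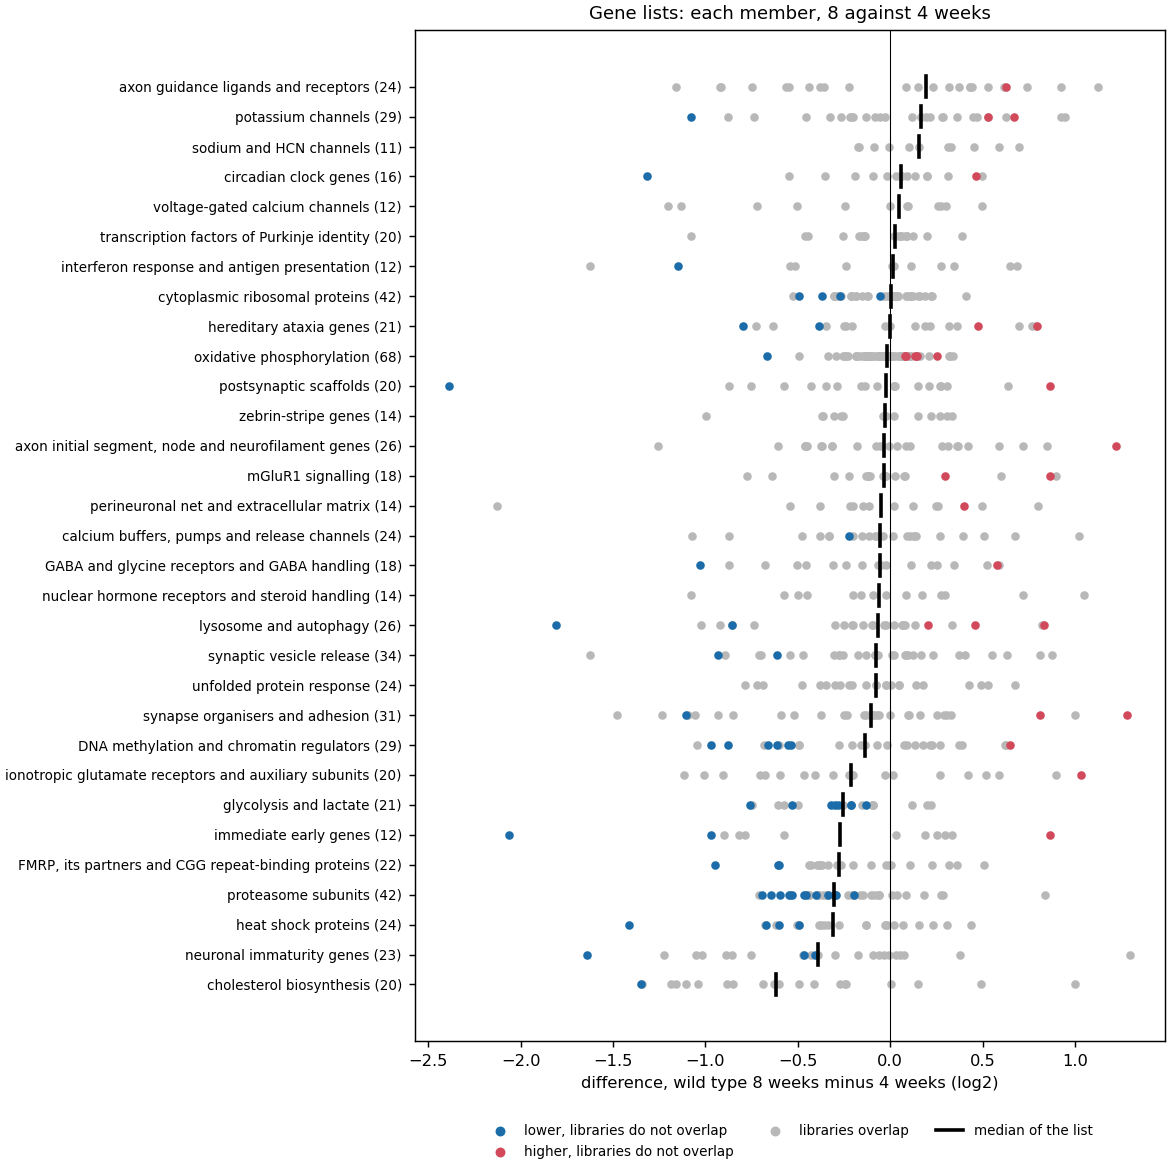
Difference in log2 signal, 8 minus 4 weeks in wild type (horizontal axis), for each tested member (points) of the 31 lists that are not cell type or sex markers (rows, members tested in brackets), with the list's median as a bar and members without overlap between ages in colour. The medians run from -0.62 for cholesterol biosynthesis to 0.19 for axon guidance genes (-0.12 without the first 4-week and -0.27 without the second 8-week replicate), and most lists lie around the -0.04 of all genes.

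The CGG90 libraries of the same ages are separate samples, although the first number in their titles follows age as in wild type. A later number in the titles, also of unstated meaning, ran on closely over CGG90 at 4 weeks and wild type at both ages. It lay apart for CGG90 at 8 weeks. The 18 libraries had 11 immunoprecipitation dates, so some shared a date. The mean of other-cell markers rose over the replicates at 4 weeks in wild type (6.08, 7.51 and 8.31) and in CGG90 (6.32, 7.22 and 8.36). At 8 weeks it was 6.85, 7.70 and 5.48 against 7.16, 5.65 and 7.38. The part of dates or other cells in what the genotypes share was not tested. Over 10068 genes, which are not independent of each other, the 2 age differences correlated at r = 0.411. Of the 554 genes higher without overlap in wild type, 208 were so in CGG90 too (37.5% of the wild-type genes and 30.1% of 690 in CGG90, where the background was 6.85%). Of the 653 lower genes, 210 were shared (32.2%, and 22.7% of 927, background 9.21%), and 8.66% of genes had an unadjusted p under 0.05 in CGG90. Of the 208, 39 entered the test only through 8-week libraries of the 2 genotypes, and of the 210, 12 only through 4-week libraries, so part of this overlap is fixed by the filter. In opposite directions 5 and 3 genes separated. Of the leading genes, 11 of 12 higher and 12 of 12 lower had the same sign in CGG90. The share of all genes with the same sign in both genotypes was not counted, so these counts of signs have no background here. In CGG90 too, 9 of the higher and 5 of the lower leading genes were without overlap. Of these 9, 5 (Btnl9, Gm6600, Sntb1, BC147527 and Thsd7b) reached 4 in no library other than those of 8 weeks and entered the test only through them, so that their agreement supports nothing. Proteasome subunits were lower in CGG90 for 38 of 42, with a median of -0.36. Of these, 8 were lower without overlap in both genotypes, against 210 of 10068 genes tested. Glycolysis genes were lower for 18 of 21, 6 of them without overlap in both. Cholesterol biosynthesis genes were lower for 16 of 20, with a median of -0.90 and Mvd at -1.02. The share of all genes with a lower mean in CGG90 was not counted, so these counts of lower members have no background here.

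The difference between genotypes in the age difference passed the test for 1 gene (0.00993%), and 117 genes (1.16%) had an unadjusted p under 0.05. It was Cyb5rl, a cytochrome b5 reductase-like protein, which was at background in wild type at both ages (means 2.69 and 2.73) and differed by 3.06 in CGG90, where it read 2.68 to 2.69 at 4 weeks and 5.62, 6.51 and 5.09 at 8 weeks. It reached 4, the level required for testing, only in those 3 CGG90 8-week libraries, so it was tested only through the group where it is high, and its p is given as a description. The difference of the differences, wild type minus CGG90, was -3.02 ± 0.39 (SE), adjusted p 0.014 in limma. The call was not made without any 1 of 5 of the 6 wild-type libraries, namely replicates 1, 2 and 3 at 4 weeks and 1 and 2 at 8 weeks, nor with a replicate block, nor without the libraries labelled CGG90 at 12 weeks that were low in Fmr1, where in each case the count of genes was 0. At 12 weeks the libraries labelled CGG90 read 2.71 to 2.78. The genes next in order did not pass: Zfp287 at 2.22 (adjusted p 0.206), Bace2 at 2.96 (0.798) and Tubgcp5 at 2.55 (1.00). Th, tyrosine hydroxylase, an enzyme that some Purkinje cells express, was 7.65, 7.27 and 6.73 at 4 weeks and 5.30, 5.30 and 6.48 at 8 weeks in wild type, a difference of -1.52, against 0.53 in CGG90, and its difference between genotypes had an adjusted p of 1.00.

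**Figure D5:**
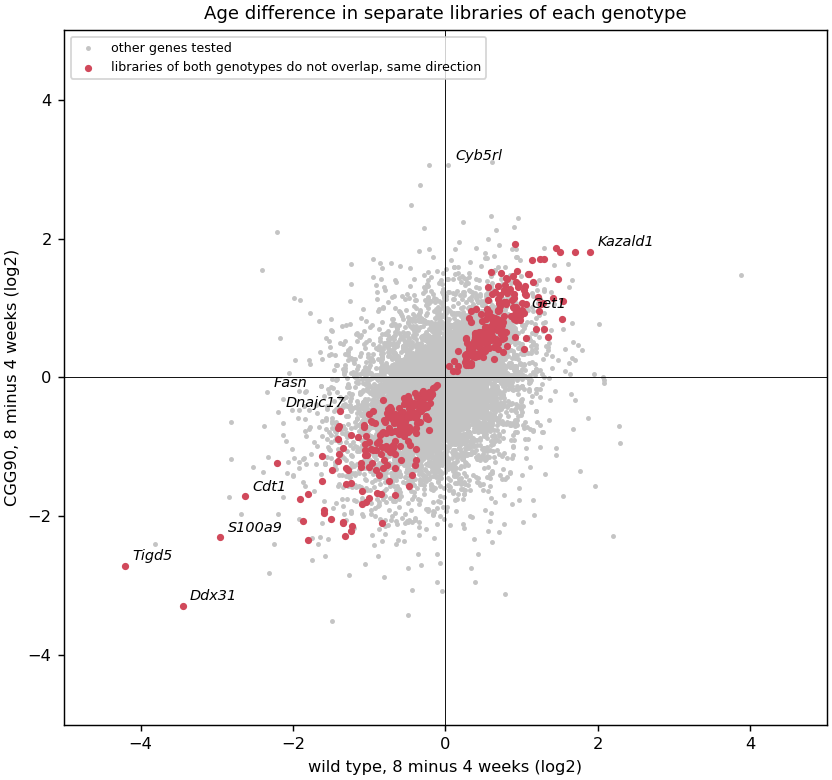
Difference in log2 signal from 4 to 8 weeks in CGG90 libraries (vertical axis) against that in wild-type libraries (horizontal axis), 1 point per gene tested; red marks genes whose libraries do not overlap in the same direction in both genotypes, and some named genes are labelled. Kazald1 lies near the diagonal at 1.90 and 1.81, Fasn at -2.34 and -0.21, and Cyb5rl at 0.04 and 3.06.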

How the data were processed

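RNA bound to EGFP-L10a-tagged ribosomes was measured on Affymetrix mouse arrays. The deposited values are log2 signals made by the authors with GCRMA, per the submitters' processing notes, in 45101 probe sets and 18 libraries. Probe sets with 1 gene symbol were kept, named through the platform annotation and a RefSeq gene table, with 1 probe set per gene (the highest mean over 18 libraries). The 10068 genes that reached 4 on the log2 scale in 3 or more libraries were tested. The 6 group means were fitted with limma 3.58.1 in R 4.3.3, with Benjamini-Hochberg adjustment over all genes and a threshold of 0.05. Array number limits the precision. The fit was tested on simulated data. Genes named are the 12 of smallest p per direction, up to 6 members without overlap per list (otherwise 2), marker genes and checks, and the leading genotype differences. The members and the 42 gene lists were chosen with earlier results of these data known. Alternatives covered filters, scaling, probe set choice, variance model, sample sets, leaving out each library and the replicate block.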

Additional observations from a re-analysis of the deposited data

Results flagged for a closer look

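The age difference of Cyb5rl differed between the genotypes, by -3.02 (wild type minus CGG90, adjusted p 0.014 in limma). In wild type its means were 2.69 and 2.73, near the array's background, and in CGG90 the difference was 3.06, higher in 3 of 3 libraries at 8 weeks. Those 3 libraries are the only ones where it reached the level of 4 required for testing, and 5 of the 6 fits that each left out 1 wild-type library made no call.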

How the results depend on the processing

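No gene passed in wild type with the deposited values, and 441 had an unadjusted p under 0.05. The count was 1 (Fasn) with the stricter filter (6 on the log2 scale), the filter within the 6 wild-type libraries, quantile normalization and median centring, 46 with array weights, and 0 to 2 when each library was left out. The CGG90 count of 1 was 3 without a filter, 0 with the stricter filter, 3 with array weights, 4 with a trended and robust variance, and 1 to 5 when each library was left out. The genotype difference count of 1 was 0 with the stricter filter, without the libraries labelled CGG90 at 12 weeks that were low in Fmr1, with the trended and robust variance and with the replicate block, and 0 to 1 when each library was left out. The stricter filter leaves Cyb5rl out; otherwise the cause was not tested. Without a filter, 1061 genes had libraries not overlapping, higher at 8 weeks. The replicate block left 0 calls in wild type, with 18 libraries or the 6 alone. After the mean of each group was taken off, same-numbered wild-type libraries of 4 and 8 weeks correlated at 0.01, -0.19 and -0.53. With 3 libraries a group such deviations sum to 0, so these values cannot decide whether the numbers pair the libraries. Signs of 4 genes, Rpl10a, Fmr1, Bace2 and Cyb5rl, turned in some setting. With all libraries Fmr1 was at -0.91 with array weights and Cyb5rl at -0.042 with quantile normalization and -0.068 with the other-cell covariate. When each library was left out, Rpl10a ranged from -0.27 to 0.032, Fmr1 from -0.23 to 1.23, Bace2 from -0.19 to 0.82 and Cyb5rl from -0.020 to 0.075. Of 89 genes named under 20 settings, 1712 values kept their direction and side of the threshold, 28 newly passed and 7 turned. Scaling moved the median difference by 0.02 (quantile) and 0.04 (centring), and the share of lower genes was 54%, 52.1% and 50.8%.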

Other observations

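Some further genes separated the ages in wild type without passing the test. Dusp1, an inducible phosphatase of MAP kinases, read 9.85, 10.66 and 10.80 at 4 weeks and 9.08, 9.25 and 6.80 at 8 weeks, and Ier5, another immediate early gene, differed by -0.97 ± 0.45 (SE). The list of 12 immediate early genes had 6 members higher and 6 lower. In the lysosome and autophagy list Atg7, an activating enzyme of autophagosome formation, differed by -1.81 and Wipi2, a phosphoinositide-binding autophagy protein, by 0.83. The other Atg7 probe sets, with 4-week means of 4.90 or less, gave -0.55 to 0.02. Those of Wipi2 gave 0.44 and, at background, 0.009. The 21 hereditary ataxia genes had a median of 0.00. Ttbk2 and Ppp2r2b were higher without overlap, at 0.79 and 0.48, Atxn2 was lower, at -0.39, and Atxn10 read 11.58, 11.62 and 11.93 against 10.96, 10.95 and 10.82.

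The following genes were chosen after their values were seen. Ctse, the aspartic protease cathepsin E, read 10.32, 8.81 and 9.74 at 4 weeks and 11.39, 11.02 and 11.08 at 8 weeks, and the CGG90 difference was 1.09. Another Ctse probe set was at background at both ages in wild type (means 2.22 and 2.23). Il18, an inflammatory cytokine, differed by -1.30 in wild type and -1.53 in CGG90. Tigd5, a gene derived from a transposase, read 10.18, 6.98 and 8.81 against 5.89, 2.37 and 5.09, with a CGG90 difference of -2.71, and a second probe set gave -2.57 in wild type.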
